A study of Bos taurus with 31 samples.

Results

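The 10 genes described here encode proteins of iron uptake, storage, export and sensing and of the control of hepcidin in the liver of dairy cows. They are *TFRC*, *TF*, *FTH1*, *SLC40A1*, *TFR2*, *ACO1*, *IREB2*, *HAMP*, *BMP6* and *TMPRSS6*, taken by gene symbol from a table of raw read counts of 24616 bovine genes. All 10 were among the 15916 genes that reached 20 reads over all cows together and were tested. The set was selected on values from the same cows, since *TFRC* had already been seen to differ between CON_HC and CON_LC. Values of the 10 genes from that comparison, and from high against low concentrate over all cows, are therefore given as a description with no test.

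Liver biopsies were taken from 31 lactating German Holstein cows in week 16 of a feeding trial, and 1 RNA-seq library was made per cow. CON groups received a control ration, and GLY groups a ration whose peas, wheat grain and straw carried residues of a glyphosate formulation sprayed before harvest. The concentrate feed proportion (CFP) was 60% of the dry matter in HC groups and 30% in LC groups. This gave 8 cows in CON_HC, 8 in CON_LC, 8 in GLY_HC and 7 in GLY_LC, and all cows had eaten 1 common ration before the trial. A biopsy holds all cell types of the liver, so that fewer cells of a type and less RNA per cell cannot be told apart in these libraries.

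Iron travels in plasma bound to transferrin, the product of *TF*, and enters cells through transferrin receptor 1, the product of *TFRC*. Inside the cell it is stored in ferritin, whose heavy chain is encoded by *FTH1*, and it leaves through ferroportin, encoded by *SLC40A1*. Iron regulatory proteins 1 and 2, encoded by *ACO1* and *IREB2*, bind the mRNAs of these genes when iron is scarce, which stabilises *TFRC* mRNA and blocks translation of ferritin and ferroportin. Hepatocytes secrete hepcidin (*HAMP*), which removes ferroportin from cell surfaces, and its transcription is raised by bone morphogenetic protein 6 (*BMP6*) through SMAD proteins and by inflammation through STAT3.

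The libraries held from 11675775 to 36675542 gene-assigned reads each. Levels are given as counts per 1000000 reads (CPM), scaled by edgeR's TMM factors, and differences as log2 fold changes of edgeR's quasi-likelihood model with its standard error (SE). Genes counted as called had an unadjusted p under 0.05 and, adjusted over all genes tested by the Benjamini-Hochberg method, a p under 0.1. Hepatocyte markers were high in every cow, with a summed level of *ALB*, *APOA1*, *TTR*, *SERPINA1* and *FGB* between 91078 and 178839 CPM. GLY_LC cow 912 stood apart from the other cows. It had the lowest hepatocyte sum, but the markers in that sum went different ways. *ALB*, at 42896 CPM against group medians of 100543 to 116363 CPM, *TTR* and *SERPINA1* were below every group median. *FGB* (42248 against at most 33432 CPM) and *APOA1* (714 against at most 632 CPM) were above all other cows. The summed level of intestinal epithelium markers in cow 912 was 315 CPM against at most 38.1 CPM in the other 30 cows, with *FABP2* at 206 CPM against at most 0.163 CPM. The part of these transcripts in its values was not tested. Many estimates are also given without cow 912 below or in the closing section, and the others are given only with it.

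*TFRC* had higher means with the high than with the low concentrate proportion in both CON and GLY cows, and in CON cows the groups did not overlap. Its level had a minimum of 28.3, a median of 38.0 and a maximum of 57.8 CPM in CON_HC, and of 18.3, 24.6 and 28.2 CPM in CON_LC. Every CON_HC cow was above every CON_LC cow, although the lowest CON_HC cow, with 28.3 CPM, and the highest CON_LC cow, with 28.2 CPM, nearly met. Such a separation of CON_HC from CON_LC was found in 0.0188% of the genes tested. The means were 42.7 ± 12.7 CPM in CON_HC and 23.9 ± 3.52 CPM in CON_LC (SD, n = 8 each), which is a log2 fold change of 0.84 (SE 0.21) or 1.79-fold. Cows of CON_HC fell into 3 at 57.4 to 57.8 CPM and 5 at 28.3 to 39.7 CPM.

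In GLY cows, which had no part in the comparison that brought *TFRC* forward, its level had a minimum of 24.1, a median of 40.2 and a maximum of 54.3 CPM in GLY_HC, and of 15.6, 22.4 and 53.4 CPM in GLY_LC. Here the groups overlapped. Cow 905 of GLY_LC, at 53.4 CPM, lay within the upper range of GLY_HC, whereas the next GLY_LC cow was cow 912 with 32.6 CPM and the other 5 were at 15.6 to 25.7 CPM. The means were 38.7 ± 11.3 CPM in GLY_HC (SD, n = 8) and 27.1 ± 12.8 CPM in GLY_LC (SD, n = 7). The log2 fold change was 0.51 (SE 0.22), with an unadjusted p of 0.0241 that did not hold over all genes (adjusted p = 0.319, quasi-likelihood F test of edgeR, Benjamini-Hochberg adjusted). Permuting the labels of these cows in all ways (exact two-sided permutation test on mean log2 CPM) gave a difference of 0.57 between GLY_HC and GLY_LC and p = 0.0556 (n = 8 against 7). This value depended on 1 cow. Without cow 905 the difference was 0.75 with p = 0.00799 by the same exact permutation test (n = 8 against 6). Cow 905 was left out after its value was seen. As it was the highest GLY_LC cow, leaving it out could only widen the difference, so that nothing is read from the smaller p. In edgeR, the log2 fold change without cow 905 was 0.77 (adjusted p = 0.104), and without any other single cow it was between 0.42 and 0.59 (adjusted p between 0.256 and 0.524).

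**Figure D1:**
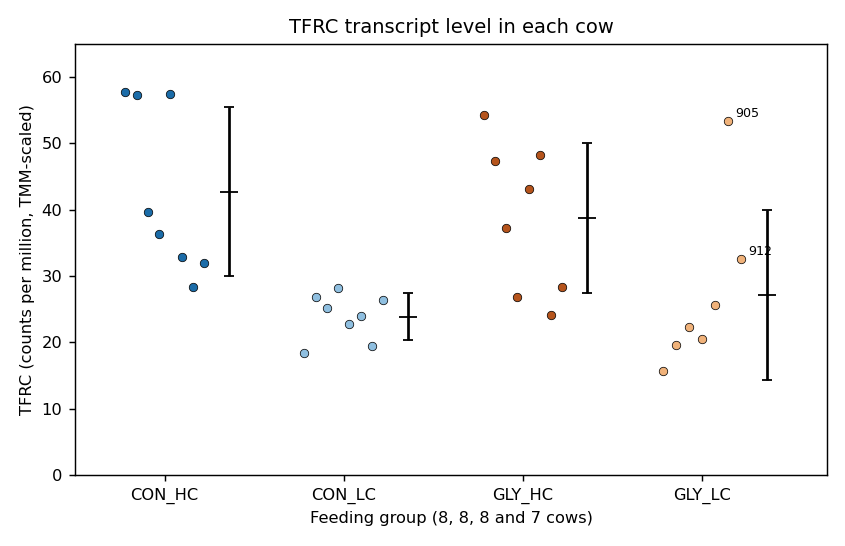
Level of *TFRC* in CPM (y axis) by feeding group (x axis), with 1 point per cow and the mean ± SD of each group beside its points. All CON_HC cows lie above all CON_LC cows, and in GLY groups cow 905 of GLY_LC, at 53.4 CPM, lies among the highest GLY_HC cows.

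Ordered by mean, *TFRC* was highest in CON_HC, followed by GLY_HC, GLY_LC and CON_LC. Neighbours with the same CFP did not differ beyond their spread, with a log2 fold change of -0.14 (SE 0.21) between GLY_HC and CON_HC and of 0.18 (SE 0.22) between GLY_LC and CON_LC (adjusted p = 1.0 each, quasi-likelihood F test of edgeR, Benjamini-Hochberg adjusted). The difference between the CFP effects in GLY and in CON cows was -0.33 (SE 0.30, adjusted p = 0.999, edgeR). Each of these comparisons, between treatments as well as between CFP effects, uses CON cows in which *TFRC* had first been seen to differ. Over all cows, with treatment as a covariate, the log2 fold change of HC against LC was 0.68 (SE 0.15). This value holds the cows in which *TFRC* had first been seen to differ and is a description.

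The summed level of macrophage markers also had higher medians in HC than in LC groups, within ranges that overlapped. This sum of 8 markers of Kupffer cells and macrophages, which take up and recycle the iron of red cells, had a median of 910 CPM in CON_HC (range 478 to 1308) against 731 CPM in CON_LC (590 to 1092), and of 943 CPM in GLY_HC (554 to 1349) against 709 CPM in GLY_LC (596 to 1116). All 8 were detected in all 31 cows. *MARCO*, 1 of the 8, went the other way, with medians of 53.6 CPM in CON_HC and 61.4 in CON_LC, and of 66.2 in GLY_HC and 74.5 in GLY_LC. The summed level of 4 markers of dividing cells had medians of 6.14 CPM in CON_HC, 5.43 in CON_LC, 9.24 in GLY_HC and 5.40 in GLY_LC, within ranges of 2.20 to 23.4 CPM. The part of these cells in the level of *TFRC* was not tested. Erythroid markers were near 0, with at most 13.1 CPM for the sum of 8 genes in any cow and 0 reads of *SLC4A1*, the anion exchanger of red cells, in all cows. Of the 8, 4 reached 20 reads over all cows, and *HBB* alone reached 12.8 CPM. Reads that fit several places were not counted, so that these low levels do not show that red cells were absent.

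*TF* also had a higher median in HC than in LC groups, with a smaller log2 fold change than *TFRC*. It had a minimum of 22802, a median of 25722 and a maximum of 29726 CPM in CON_HC, and of 19072, 20308 and 29177 CPM in CON_LC. The CON groups overlapped through 2 CON_LC cows, cow 145 with 29177 CPM and the next with 23378 CPM, while the lowest CON_HC cow had 22802 CPM. In CON cows this was a log2 fold change of 0.27 (SE 0.12), given as a description. In GLY cows *TF* lay between 22219 and 28148 CPM in GLY_HC and between 11225 and 27057 CPM in GLY_LC, with medians of 24605 and 21636 CPM. For GLY cows the difference on the log2 scale was 0.21 (SE 0.13, adjusted p = 0.516, edgeR) and 0.10 (SE 0.10, adjusted p = 0.834, edgeR) without cow 912, which had the lowest *TF* of all cows.

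*FTH1*, the ferritin heavy chain, differed little between groups. Its medians were 1936 CPM in CON_HC, 1878 in CON_LC, 1804 in GLY_HC and 1697 in GLY_LC, and all cows lay between 1262 and 2462 CPM. The log2 fold change between HC and LC was 0.10 (SE 0.10) in CON cows and 0.03 (SE 0.11, adjusted p = 0.936, edgeR) in GLY cows. Ferritin genes have processed copies of near-identical sequence, and reads that fit several places were not counted, so that the level of *FTH1* is uncertain.

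*SLC40A1*, which encodes ferroportin, was likewise close to even. Its medians were 253 CPM in CON_HC, 226 in CON_LC, 265 in GLY_HC and 237 in GLY_LC. In the 30 cows other than cow 912 it lay between 201 and 354 CPM, and cow 912 had 90.2 CPM. The log2 fold change between HC and LC was 0.15 (SE 0.15) in CON cows and 0.21 (SE 0.15, adjusted p = 0.613, edgeR) in GLY cows, and 0.06 (SE 0.10, adjusted p = 0.904, edgeR) in GLY cows without cow 912.

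**Figure D2:**
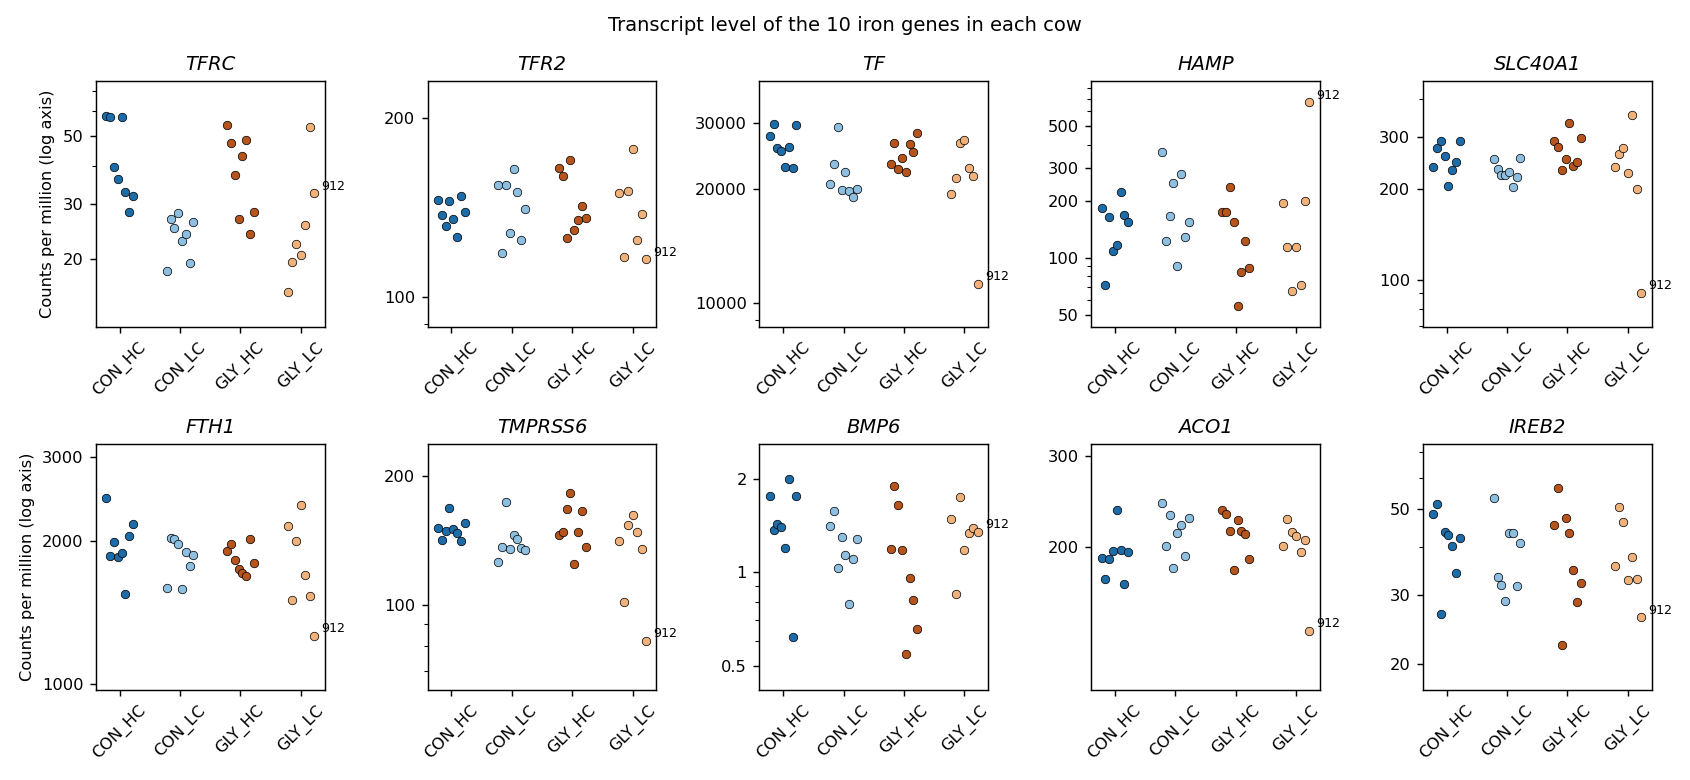
Levels of the 10 genes in CPM (y axes, log scale) by feeding group (x axes), with 1 point per cow and cow 912 of GLY_LC marked. *HAMP* spreads over a 12-fold range with cow 912, at 670 CPM against at most 364 CPM in the other cows, and *TFR2* over a 1.53-fold range. Cow 912 lies outside all other cows for 7 of the 10 genes.

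*TFR2* and *ACO1*, which take part in the sensing of iron, had the smallest coefficients of variation of the 10 genes. *TFR2*, the second transferrin receptor, with which hepatocytes sense iron-loaded transferrin, ranged from 116 to 177 CPM over all cows, with a coefficient of variation of 11.2%. Its log2 fold change between HC and LC was -0.03 (SE 0.09) in CON cows and 0.06 (SE 0.09, adjusted p = 0.820, edgeR) in GLY cows. *ACO1*, which as an iron-free protein is iron regulatory protein 1 and otherwise the aconitase of the cytosol, had medians of 193 CPM in CON_HC, 217 in CON_LC, 215 in GLY_HC and 206 in GLY_LC. Its coefficient of variation over all cows was 11.2%. Its log2 fold change between HC and LC was -0.14 (SE 0.09) in CON cows and 0.10 (SE 0.09, adjusted p = 0.691, edgeR) in GLY cows. The difference of these CFP effects was 0.24 (SE 0.12), which had an unadjusted p of 0.0551 in edgeR, and 0.17 (SE 0.10) without cow 912, with an adjusted p of 0.999 and 1.0, respectively. *IREB2*, iron regulatory protein 2, lay between 22.4 and 56.4 CPM and had medians of 42.4 CPM in CON_HC, 37.1 in CON_LC, 39.1 in GLY_HC and 35.7 in GLY_LC. The groups overlapped, and the log2 fold change between HC and LC was 0.10 (SE 0.16) in CON cows and 0.05 (SE 0.17, adjusted p = 0.936, edgeR) in GLY cows.

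*HAMP* had the largest spread of the 10 genes between cows of the same group. It had a minimum of 71.6, a median of 160 and a maximum of 224 CPM in CON_HC, and of 90.5, 161 and 364 CPM in CON_LC. In GLY cows the values were 55.8, 139 and 239 CPM in GLY_HC, and 66.8, 115 and 670 CPM in GLY_LC. All 4 groups overlapped, and cow 912, at 670 CPM, was far above the next GLY_LC cow at 200 CPM. The coefficient of variation of *HAMP* was 67.6% over all cows, against 38.8% for *TFRC* and 16.4% for *TF*. These values include cow 912, and the next highest *HAMP* of all cows was 364 CPM. Within CON_HC the coefficient was 32.3% for *HAMP*, close to 29.7% for *TFRC* and 29.4% for *BMP6*. In GLY_HC it was 44.2% for *HAMP* and 42.3% for *BMP6*. The SD of log2 CPM, with the group means removed, was 0.79 for *HAMP*, 0.44 for *TFRC* and 0.17 for both *TFR2* and *ACO1*.

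No effect of feeding on *HAMP* was detectable at this spread. The log2 fold change between HC and LC was -0.38 (SE 0.38) in CON cows and -0.58 (SE 0.39, adjusted p = 0.571, quasi-likelihood F test of edgeR, Benjamini-Hochberg adjusted) in GLY cows. The sign in GLY cows came from cow 912, since without it the log2 fold change was 0.11 (SE 0.32, adjusted p = 0.957, edgeR). Over all cows, the log2 fold change of HC against LC was -0.48 (SE 0.27), and -0.16 (SE 0.22) without cow 912. Between GLY_LC and CON_LC it was 0.07 (SE 0.39) with cow 912 and -0.61 (SE 0.32) without it (adjusted p = 1.0 each, edgeR).

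*BMP6*, the ligand that raises hepcidin, was covered by few reads, between 7 and 49 per cow, and its level was between 0.543 and 1.99 CPM. Its medians were 1.42 CPM in CON_HC, 1.21 in CON_LC, 1.07 in GLY_HC and 1.35 in GLY_LC. The log2 fold change between HC and LC was 0.27 (SE 0.22) in CON cows and -0.26 (SE 0.23, adjusted p = 0.682, edgeR) in GLY cows. The difference between these effects was -0.53 (SE 0.32, unadjusted p = 0.106 and adjusted p = 0.999, edgeR), and was not told apart from 0. The part of the low read numbers in this was not tested. *TMPRSS6*, a serine protease that lowers hepcidin by cleaving hemojuvelin, had medians of 149 CPM in CON_HC, 136 in CON_LC, 148 in GLY_HC and 141 in GLY_LC. Its log2 fold change between HC and LC was 0.09 (SE 0.10) in CON cows. In GLY cows it was 0.21 (SE 0.11, unadjusted p = 0.0619 and adjusted p = 0.429, edgeR), and 0.12 (SE 0.09, adjusted p = 0.770, edgeR) without cow 912, at 82.2 CPM the lowest of all cows.

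**Figure D3:**
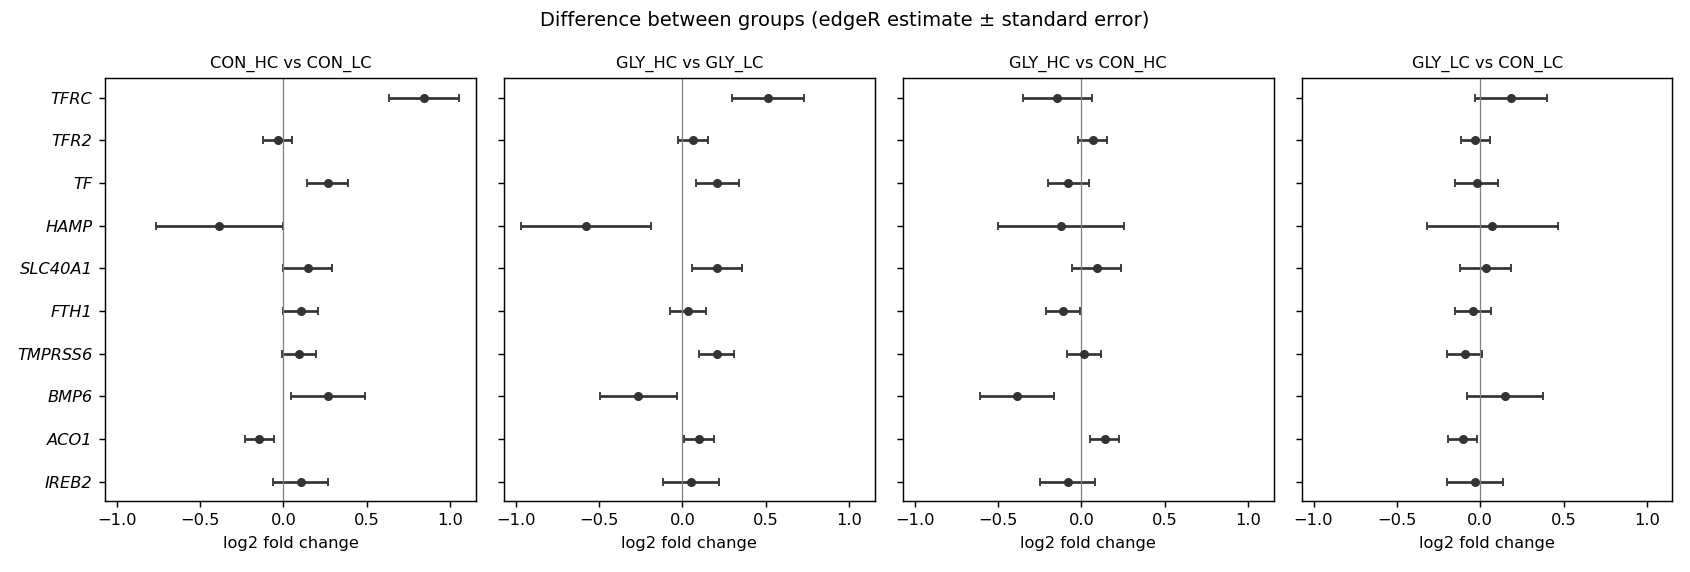
Log2 fold changes of the 10 genes (x axes) with edgeR's estimate as a point and its standard error as a bar, for HC against LC in CON and in GLY cows and for GLY against CON in HC and in LC cows. *TFRC* lies farthest to the right in both comparisons of HC with LC, and the comparisons share cows of the same groups.

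Between GLY_HC and GLY_LC, edgeR called 0 of the 10 genes, where 0.201% of all genes tested were called. At an unadjusted p under 0.05 there was 1 of the 10, *TFRC*, where 12.5% of all genes passed, and DESeq2 called 0 on all cows (0.898% of all genes) and 0 on the GLY cows alone (0.559% of all genes). The median log2 fold change of the 10 genes was 0.08, against -0.01 for all genes. Of the 10, 8 were above 0, as were 48.6% of all genes. This median and this count are given only with cow 912 of GLY_LC, the lowest of all cows for 6 of the 10 genes. Without that cow, *FTH1* and *IREB2* fell below 0 and *HAMP* rose above 0, so that the count depends on it. In CON cows the median was 0.10, against -0.01 for all genes, with 7 of the 10 above 0, as were 46.1% of all genes.

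Glyphosate residues changed none of the 10 genes past the thresholds. With CFP as a covariate, the log2 fold change of GLY against CON was 0.01 (SE 0.15) for *TFRC*, -0.05 (SE 0.09) for *TF*, -0.03 (SE 0.27) for *HAMP* and -0.08 (SE 0.07) for *FTH1*. The values of all 10 genes were between -0.12 and 0.06, with adjusted p of 1.0 (quasi-likelihood F test of edgeR, Benjamini-Hochberg adjusted). For *TFRC*, every comparison of GLY with CON uses CON cows in which it had first been seen to differ. Called genes in this comparison were 0.0% of all tested, and 0 of the 10 had an unadjusted p under 0.05, where 3.92% of all genes had one. Within one CFP, 0 of the 10 were called by edgeR between GLY_HC and CON_HC (0.0% of all genes) and 0 between GLY_LC and CON_LC (0.0628% of all genes). At an unadjusted p under 0.05 there were 0 of the 10 in both, against 2.92% and 5.65% of all genes. DESeq2 called 0 of the 10 in each of these comparisons. On all cows it called 0.00628% of all genes between GLY and CON, 0.0% between GLY_HC and CON_HC and 0.0251% between GLY_LC and CON_LC, and on the compared groups alone 0.0188% and 0.0126% in the last 2. *BMP6* had -0.39 (SE 0.22, unadjusted p = 0.0947, edgeR) between GLY_HC and CON_HC. The interaction of GLY with CFP was called for 0 of the 10 genes by edgeR (0.0% of all genes) and by DESeq2 (0.00628%), and 0 of the 10 had an unadjusted p under 0.05, against 4.21% of all genes.

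Cow 912 lay outside the range of the other 30 cows for 7 of the 10 genes, where it did so for 26.6% of all genes tested. It had the highest level of all 31 cows for *HAMP* and the lowest for *TFR2*, *TF*, *SLC40A1*, *FTH1*, *TMPRSS6* and *ACO1*, whereas *TFRC*, *BMP6* and *IREB2* lay within the range of the other cows. Over all genes, it was the highest cow in 15.0% and the lowest in 11.6%. Its *HAMP* was 4.34 times the median of the other 30 cows (670 against 154 CPM). Its *SLC40A1* was 0.365 times that median (90.2 against 247 CPM), and its *TF* 0.481 times (11225 against 23343 CPM).

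Among the other genes of iron handling, this cow had 19491 CPM of haptoglobin (*HP*), a plasma protein that binds free haemoglobin and rises in inflammation, against a median of 277 and at most 6569 CPM in the other cows. It was also highest for *SLC39A14*, an importer of iron that is not bound to transferrin (2541 against at most 1376 CPM), and for *SLC11A2*, an iron transporter of intestine and endosomes (66.1 against at most 20.4 CPM). *STAT3*, which carries the signal of interleukin-6 to *HAMP*, reached 492 against at most 239 CPM, and *SMAD1*, which carries that of bone morphogenetic proteins, 85.5 against at most 41.4 CPM. Both were chosen after their values were seen. *HJV*, or hemojuvelin, the co-receptor for bone morphogenetic proteins that *TMPRSS6* cleaves, was lowest at 8.95 against at least 17.2 CPM. Of 45 other genes of iron handling that were tested, 16 were highest and 12 lowest in cow 912. This library also held intestinal epithelium transcripts, with *FABP2* at 206 CPM against at most 0.163 CPM in the other cows. Their part in the values of cow 912 was not tested.

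**Figure D4:**
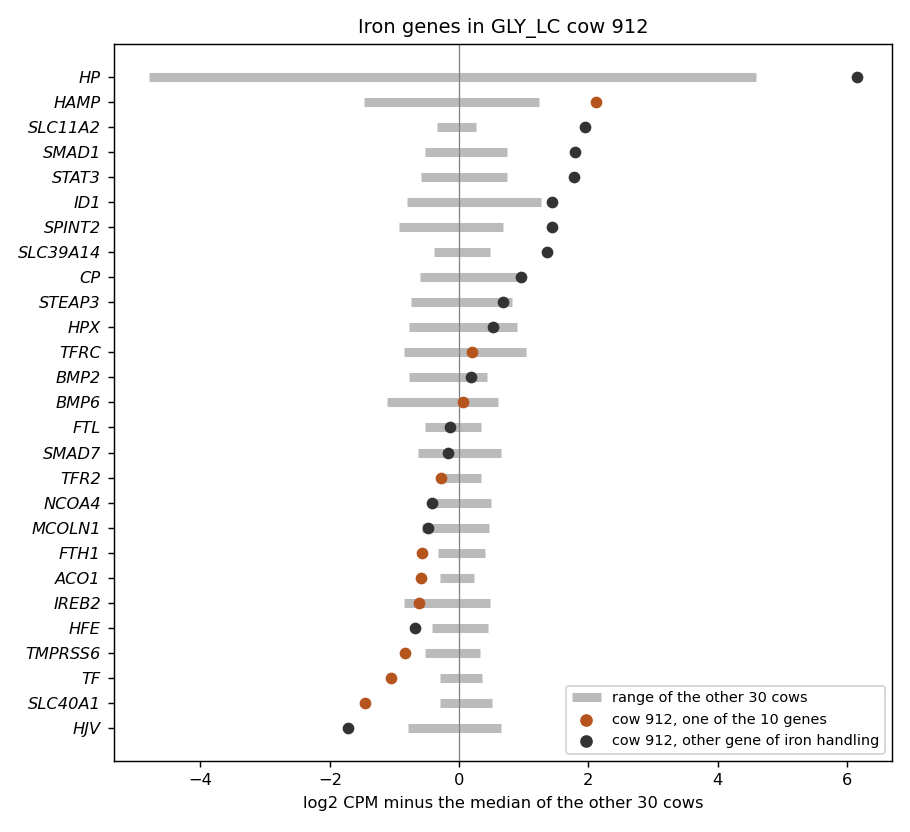
Level of 27 genes of iron handling in GLY_LC cow 912 (points), as log2 CPM minus the median of the other 30 cows (x axis), with the range of those cows as a grey bar and the genes on the y axis. *HAMP* and *HP* lie above the range of the other cows and *SLC40A1*, *TF* and *HJV* below it.

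Of the other 47 genes of iron handling, 45 were tested, since *HEPHL1* and *ERFE* had under 20 reads over all cows. EdgeR called 0 of the 45 in any of the 7 comparisons, where the largest share of all genes called was 1.45%, in HC against LC over all cows. DESeq2 on all cows called 0 of the 45 there (2.73% of all genes) and 0 between CON_HC and CON_LC (0.17% of all genes). Between CON_HC and CON_LC, 2 had an unadjusted p under 0.05 in edgeR (5.96% of all genes) and both had a log2 fold change above 0. These were hemopexin (*HPX*), which carries haem in plasma, and ceruloplasmin (*CP*), the ferroxidase that loads iron onto transferrin. *HPX* lay between 4301 and 6854 CPM in CON_HC and between 2551 and 4950 CPM in CON_LC, with medians of 5217 and 3561 CPM, so that the groups overlapped. Its log2 fold change was 0.62 (SE 0.18, adjusted p = 0.465, edgeR), and that of *CP* was 0.49 (SE 0.20, adjusted p = 0.758, edgeR). Without cow 912, which is in neither group but shares the model's estimate of the spread, there were 5, since *HP*, *SLC39A8* and *STAT3* joined them, against 7.16% of all genes. DESeq2 on the CON cows alone called 2 of the 45, *HPX* and *STAT3*, and 0.503% of all genes. Over all cows, *HPX* had a log2 fold change of 0.40 (SE 0.14, adjusted p = 0.169, edgeR) between HC and LC. *MCOLN1*, a channel that releases iron from endosomes and lysosomes, had 0.24 (SE 0.08, adjusted p = 0.169, edgeR). At an unadjusted p under 0.05 there were 5 of the 45 in that comparison, against 13.7% of all genes, and 12 of the 45 without cow 912, against 11.9% of all genes. Of these 12, 5 had a log2 fold change above 0, and 0 were called.

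In GLY cows, 9 of the 45 had an unadjusted p under 0.05 between GLY_HC and GLY_LC, against 12.5% of all genes, with log2 fold changes above 0 for *HFE* and *MCOLN1* and below 0 for the other 7. Without cow 912 there were 3 of the 45, *ACVR1*, *ATOH8* and *CISD1*, picked out with their values known, against 8.37% of all genes. *SLC11A2* had a log2 fold change of -0.64 (SE 0.21, adjusted p = 0.210, edgeR) with that cow and -0.16 (SE 0.09, adjusted p = 0.658, edgeR) without it. *SLC39A14* had -0.45 (SE 0.15, adjusted p = 0.231, edgeR) with it and -0.21 (SE 0.11, adjusted p = 0.619, edgeR) without it. *HFE*, which binds both transferrin receptors and takes part in the sensing of iron, was at 9.34 ± 1.08 CPM in GLY_HC (SD, n = 8) and 7.75 ± 1.61 CPM in GLY_LC (SD, n = 7), with a log2 fold change of 0.27 (SE 0.12, adjusted p = 0.331, edgeR), and of 0.20 (SE 0.11, adjusted p = 0.656, edgeR) without cow 912.

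Between GLY_LC and CON_LC, 7 of the 45 had an unadjusted p under 0.05 (5.65% of all genes), and all 7 had a log2 fold change above 0. Without cow 912 there were 2, *CP* and *STAT3*, against 3.07% of all genes. *HP* had a log2 fold change of 4.24 (SE 1.35, adjusted p = 0.453, edgeR) with that cow and of 1.47 (SE 1.11, adjusted p = 1.0, edgeR) without it. *SPINT2*, an inhibitor of serine proteases, had 0.53 (SE 0.23, adjusted p = 0.80, edgeR) with cow 912, whose level was 13.8 CPM against at most 8.10 CPM in the other cows, and 0.27 (SE 0.20, adjusted p = 1.0, edgeR) without it. Between GLY_HC and CON_HC, 0 of the 45 had an unadjusted p under 0.05 (2.92% of all genes), and 1, *ACVR1*, had one without cow 912 (3.52% of all genes). With CFP as a covariate *HP* was the 1 of the 45 that had one between GLY and CON (3.92% of all genes). Without cow 912 there were 0 of the 45 (2.76% of all genes), and the log2 fold change of *HP* was 1.09 (SE 0.75) in place of 2.46 (SE 1.04).

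Of the remaining genes named here, 0 had an unadjusted p under 0.05 between HC and LC in CON or in GLY cows. The light chain of ferritin (*FTL*) had a log2 fold change of -0.12 (SE 0.11) in CON cows and -0.10 (SE 0.11) in GLY cows. *NCOA4*, which delivers ferritin to lysosomes, had -0.01 (SE 0.09) and -0.03 (SE 0.10), the latter being -0.09 (SE 0.09) without cow 912. *STEAP3*, a reductase of endosomal iron, had 0.28 (SE 0.19) and 0.23 (SE 0.20), the latter being 0.37 (SE 0.19) without cow 912. *BMP2*, another ligand that raises hepcidin, had 0.16 (SE 0.13) and 0.00 (SE 0.14), which was 0.04 (SE 0.14) without cow 912, and *SMAD7*, an inhibitor of the SMAD pathway, had -0.02 (SE 0.14) and 0.13 (SE 0.15). *HJV* had -0.29 (SE 0.24) and -0.24 (SE 0.25), the latter being -0.41 (SE 0.21) without cow 912. Over all cows but cow 912, HC against LC, *STEAP3* had 0.32 (SE 0.13, adjusted p = 0.295, edgeR) and *HJV* -0.34 (SE 0.14, adjusted p = 0.325, edgeR), and both were among the 12 genes above. The adjusted p of these genes within CON and within GLY cows, with all cows in the fit, was in edgeR between 0.681 and 1.0. Over all 45, the median log2 fold change was 0.00 in CON cows and -0.05 in GLY cows, against -0.01 for all genes in both.

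*HAMP* moved from cow to cow with *ID1*, a target gene of the SMAD proteins that bone morphogenetic proteins activate. With the mean of each group removed, log2 CPM of *HAMP* and *ID1* had a Pearson r of 0.64 and a Spearman rho of 0.56 over 31 cows (permutation test with 100000 resamples, p = 0.000170 and 0.00128, adjusted p = 0.00119 and 0.00896 over 7 pairs). Within the groups, r was 0.55 in CON_HC, 0.44 in CON_LC, 0.72 in GLY_HC and 0.76 in GLY_LC. Without the 2 cows farthest from the median of *HAMP*, GLY_LC cow 912 and GLY_HC cow 131, r was 0.45 and rho 0.44 (permutation test, unadjusted p = 0.0142 and 0.0169, n = 29). These p were not adjusted over the 7 pairs, so that they do not show whether the pair passes without those cows. Without cow 912 alone, r was 0.51. That cow was the highest of all cows for *HAMP* and *ID1*. Other genes of the list of iron handling did not follow there. *SMAD7* (4.16 CPM) and *SMAD6* (0.657 CPM) lay within the range of the other cows, and *ATOH8* was lowest (3.03 against at least 6.79 CPM). The share of all genes with such an r to *HAMP* was not determined, so that the value is not shown to be particular to this pair.

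**Figure D5:**
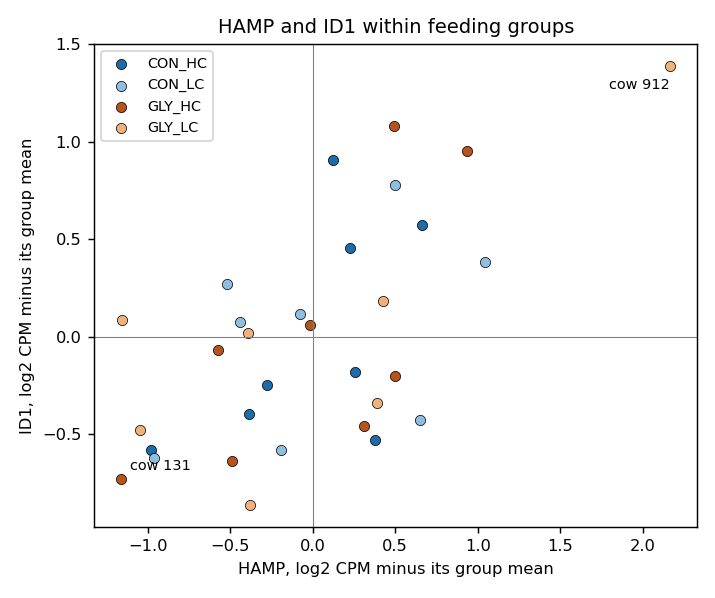
Level of *HAMP* (x axis) and *ID1* (y axis) in each cow, as log2 CPM minus the mean of its feeding group, with groups in colours and cows 912 and 131 marked. The points rise together with r of 0.64 over 31 cows and 0.45 without the 2 marked cows.

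The other 6 pairs did not pass their permutation tests after adjustment. *HAMP* and *BMP6* had r of 0.28 (permutation test, adjusted p = 0.211) and rho of 0.40 (adjusted p = 0.0880), with *BMP6* covered by at most 49 reads per cow. Without the 2 farthest cows, r of this pair was 0.22 and rho 0.37 (permutation test, unadjusted p = 0.253 and 0.0482). By group, its r was 0.17 in CON_HC, -0.12 in CON_LC, 0.88 in GLY_HC and -0.01 in GLY_LC. *HAMP* and *SMAD7* had r of 0.35 and rho of 0.31 (permutation test, adjusted p = 0.179 and 0.211). For *SMAD7*, r rose to 0.41 and rho to 0.34 without the 2 farthest cows (permutation test, unadjusted p = 0.0255 and 0.0710). Without cow 912 alone, they were 0.44 and 0.39. *HAMP* and *HP* had r of 0.32 and rho of 0.19 (permutation test, adjusted p = 0.179 and 0.432), and r fell to 0.08 without the 2 farthest cows. *HAMP* and *TFRC* had r of 0.06 and rho of 0.01 (permutation test, adjusted p = 0.763 and 0.969), and the sign of r changed without cow 912. *TFRC* had r of -0.17 and rho of -0.11 with *FTH1* (permutation test, adjusted p = 0.414 and 0.646), and r of -0.24 and rho of -0.23 with *SLC40A1* (permutation test, adjusted p = 0.278 and 0.378). By group, r of *TFRC* with *FTH1* was 0.23 in CON_HC, 0.76 in CON_LC, -0.13 in GLY_HC and -0.59 in GLY_LC. Values by group were not tested.

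Likeness over cows was also searched among 11144 genes with a symbol and a mean of at least 1 CPM, on log2 CPM with the group means removed. The 3 genes most like *TFRC* were *ST3GAL1* (r of 0.69), *SUSD6* (0.66) and *PIK3R1* (0.66) over 31 cows. The 3 genes most like *HAMP* were *MST1R* (r of 0.75), *EMD* (0.73) and *C13H20orf24* (0.71), and these fell to 0.64, 0.58 and 0.49 without cow 912. These values are a description of the libraries, which the genes share, and carry no test.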

How the data were processed

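Total RNA from liver biopsies of 31 cows was sequenced after TruSeq Stranded mRNA preparation. Per the labels, the authors used FastQC, Trim Galore, HISAT2 2.1.0, HTSeq 0.8.0 and the assembly UMD3.1, and they deposited raw counts of uniquely mapped reads for 24616 genes. Whether HTSeq counted by strand is not given in the sources used here, so that reads of overlapping or antisense genes cannot be told apart. A deposited table of normalized values was not used. Gene coordinates are not given.

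From the counts, genes with at least 20 reads over all cows were fitted in R 4.3.3 with edgeR 4.0.16 (TMM, quasi-likelihood F test), either with the 4 groups in 1 model or with treatment and CFP as additive terms. The SE was taken as the size of each estimate over the root of its F statistic. Log2 CPM used a prior count of 2. Permutation tests and correlations used Python 3.11.15 with scipy 1.17.1, and within-group correlations of 7 pairs used 100000 resamples. No pair of the same group differed by sampling noise alone (chi-square per gene between 24.5 and 487 over 105 pairs). Depth was between 11675775 and 36675542 reads per cow, and each cow was a separate animal. The edgeR model with the 4 groups was tested on simulated counts, for GLY_HC against GLY_LC.

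The 10 genes, the other 47 genes of iron handling and the marker lists were chosen with earlier results of these data known. Genes of iron handling outside the 10 are named where they were called, had 1 of the 3 smallest p in HC against LC or in GLY against CON, or belonged to a list of 12. Others, among them *SLC39A8*, *STAT3*, *SMAD1*, *SMAD6*, *ACVR1*, *ATOH8* and *CISD1*, were named with their values known. Alternatives were RLE and upper-quartile factors, no filter, filterByExpr (10 reads), a robust fit, only the compared groups, DESeq2 1.42.0, an adjusted p under 0.05, a prior count of 0.5 and single cows left out. Leaving out cow 905 from the permutation test, and cow 912 from the mean difference of *HAMP* and from the correlations, was added after the data were seen.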

Additional observations from a re-analysis of the deposited data

Results flagged for a closer look

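In groups of 7 or 8 cows, a cow was singled out where its gap to the next cow, divided by the range of the group, exceeded Dixon's 95% critical value. This held in 16 of 100 groups examined for the 10 genes and 15 others, and in 5 of the 40 groups of the 10 genes alone. The nominal rate of about 1 in 20 holds for independent and normally distributed values. The values used were CPM, and the same cows recur over genes, so that no excess over chance is read from these counts. Cow 912 of GLY_LC accounted for 7 of the 16.

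Among the 10 genes, *HAMP* in GLY_LC cow 912 was at 670 CPM against 200 CPM in the next cow. *ACO1* in the same cow was at 138 CPM, below the 196 CPM of the next. CON_LC cow 145 had both the highest *TF* of its group, 29177 against 23378 CPM, and the highest *TMPRSS6*, 174 against 145 CPM. *ACO1* was highest in CON_HC cow 134, with 236 against 197 CPM.

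Among the other genes of iron handling, cow 912 was singled out for *SLC11A2* (66.1 CPM), *SLC39A14* (2541 CPM), *HP* (19491 CPM), *ID1* (53.7 CPM) and *SPINT2* (13.8 CPM). *HP* was also far above the next cow in CON_HC cow 144, with 4435 against 836 CPM, and in GLY_HC cow 32, with 6569 against 2807 CPM. GLY_HC cow 32 also had the highest *HFE* of its group, 11.9 against 9.50 CPM. CON_LC cow 60 had the highest *NCOA4* (329 CPM) and *SMAD7* (7.40 CPM) of its group, and CON_HC cow 208 the highest *MCOLN1* (29.6 CPM).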

How the results depend on the processing

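Between CON_HC and CON_LC, DESeq2 called 1 of the 10 genes on all cows (0.17% of all genes) and 1 on only the 2 compared groups (0.503%), where edgeR called 0 (0.0%). This gene was *TFRC*, which had been selected on this comparison, so nothing is read from its call. On those 2 groups DESeq2 called 2 of the other 45. The cause was not tested. The exact permutation test of *TFRC* in GLY cows passed 0.05 without cow 905, with a difference of 0.75. That cow was left out after its value was seen, so nothing is read from this pass. Leaving out each GLY cow in turn, edgeR's log2 fold change of *TFRC* was between 0.42 and 0.77.

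Without cow 912 these log2 fold changes changed sign. Between GLY_HC and GLY_LC they became 0.11 for *HAMP* (0.10 as a difference of means), -0.038 for *FTH1* and -0.017 for *IREB2*. Between GLY_LC and CON_LC they became -0.61 for *HAMP*, 0.016 for *TFR2*, 0.094 for *TF*, 0.034 for *FTH1* and 0.042 for *IREB2*. Between GLY and CON they became -0.016 for *TFRC*, 0.0022 for *TF* and 0.0096 for *TMPRSS6*. The interaction became 0.49 for *HAMP* and -0.082 for *SLC40A1*. None of these was past the threshold before or after.

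No paired analysis was possible because the numbers in the labels name single cows and are shared by no groups. Other settings kept direction and side of the threshold for 564 values of single genes and 150 counts and tests. Without the 2 farthest cows and without cow 912, respectively, r of *HAMP* with *TFRC* changed sign to -0.024 and -0.061, and r of *HAMP* with *HP* went to 0.079 and 0.069. Without the 2 farthest cows, r of *HAMP* with *ID1* went to 0.45 and r of *TFRC* with *FTH1* to -0.00073. The numbers of cows and the spread of *HAMP* limit what these tests can detect, and *BMP6* was covered by few reads.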
